A study of Mus musculus with 10 samples.

Results

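The cell cycle and DNA replication genes are a list of 39 genes that drive and mark cell division, and their RNA was followed here in the mouse embryo at embryonic day 5.5. A member was taken as measured through every probe set of the array types MOE430A and MOE430B that the platform annotation gives to that gene symbol alone. By that rule 38 of the 39 members had a probe set, out of 18194 genes on the 2 array types, and Ccnb1 had none. MOE430A carried 76 probe sets of 38 members, of which 60 probe sets of 35 members passed the filter on low signal. MOE430B carried 16 probe sets of 12 members, of which 9 probe sets of 7 members passed it. On MOE430A the members with no probe set above the filter were Ccnd2, Cdk6 and Tyms. The brightest probe set of Ccnd2, a D-type cyclin, had 428 and 392 in Ad and 399 and 396 in Pp, against 412 in the whole embryo. That of Tyms had 406 and 375 in Ad and 467 and 384 in Pp, against 424 in the whole embryo.

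All embryos came from B6SJLF1×CerlP-GFP matings, in which a fluorescent protein under a Cer1 promoter marks the anterior visceral endoderm, and none was treated. Ad is the anterior distal fragment, made of the labelled anterior visceral endoderm with the epiblast beneath it. Pp is the posterior proximal fragment, a wedge of proximal visceral endoderm and epiblast on the side facing away from the fluorescence. Both were cut from embryos whose fluorescent domain lay between the distal tip and the side. The whole embryo was the third kind of sample and, by the design text, served for normalization. Each array type was hybridised with 2 Ad, 2 Pp and 1 whole-embryo sample of amplified RNA. The labels do not say that replicates came from separate embryos, so p-values measure the spread between these samples only.

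A dividing cell passes a chain of steps that these genes carry out. D-type cyclins with Cdk4 or Cdk6, and then E-type cyclins with Cdk2, release E2f factors such as E2f1, while Cdkn1a and Cdkn1b hold the kinases back. Cdc6 and Cdt1 load the Mcm2 to Mcm7 helicase on origins, geminin (Gmnn) blocks reloading, and the sliding clamp Pcna and the nucleotide enzymes Rrm1, Rrm2 and Tyms serve DNA synthesis. Cyclins A2 and B with Cdk1 start mitosis, Aurora kinases, Plk1, survivin (Birc5), Kif11 and Top2a carry it out, and Bub1, Bub1b, Mad2l1 and Cdc20 time the separation of chromosomes. The epiblast of the mouse egg cylinder is known for very short cell cycles with brief gap phases, and some trophoblast and decidual cells copy their DNA without dividing.

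Values are MAS5 signals, in arbitrary units on a linear scale, and differences are limma's on log2(signal + pseudocount) after each array was centred on its median. The pseudocount, a constant that steadies dim values, was 247 on MOE430A and 10.5 on MOE430B, and the filter lay at a signal of 464 and 37.2. Each gene is given by its brightest probe set, and a change is called at a Benjamini-Hochberg adjusted p under 0.05 over all kept probe sets of the array type. The median signal of an array was 590 to 644 for MOE430A, and 56.8 to 61.0 for MOE430B. The labels were checked against markers on MOE430A. The summed signal of 8 anterior visceral endoderm markers was 17202 to 22218 in Ad, against 6219 to 6246 in Pp and 8630 in the whole embryo. Epiblast markers (10 genes) summed to 34655 to 38244 in the fragments, against 26174 in the whole embryo, and visceral endoderm markers (14 of 15 with a probe set) to 83494 to 106677 in the fragments, against 82996 in the whole embryo. Extraembryonic ectoderm markers (9 of 10 with a probe set) summed to 7149 to 7277 in Ad, against 7095 in Pp replicate 1 and 12301 in Pp replicate 2, with 12245 in the whole embryo. Markers of ectoplacental cone and giant cells (5 of 8) summed to 4586 to 5931 in the fragments, against 12232 in the whole embryo, and 12 decidual markers summed to 5085 to 6639 in the fragments, against 24842 in the whole embryo. None of these marker probe sets was listed at 0. In such mixed samples, fewer cells of a type and less RNA per cell cannot be told apart. The array types share 100 probe sets, and over 96 of them the deviations of every MOE430B array correlated best with 1 MOE430A array of the same kind of sample, at a Pearson r of 0.366 to 0.914. Arrays of the 2 types may therefore hold the same RNA, and a gene seen on both is not counted as independent support.

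The first comparison was Ad against Pp, the one the study was designed around. RNA of the cell cycle genes differed little between the fragments. On MOE430A 0 of 35 measured members passed the threshold with limma, and 3 had an unadjusted p under 0.05, against 0.169% of all probe sets called (0.00737% lower) and 11.7% with an unadjusted p under 0.05. The median difference, Ad minus Pp, was -0.06 on the log2 scale for the members and -0.03 for all 13575 probe sets, with 10 members positive and 25 negative. Without centring the members' median was 0.00439, with 19 positive and 16 negative. Differences ran from -0.31 for Ccnd3 to 0.16 for Bub1b, and 33 of the 35 lay within 0.2 of zero. The 95% intervals of all 35 stayed within a 2-fold change either way, the farthest bounds being -0.71 and 0.38. Counted by probe set, 0 of 60 passed and 5 had an unadjusted p under 0.05.

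**Figure D1:**
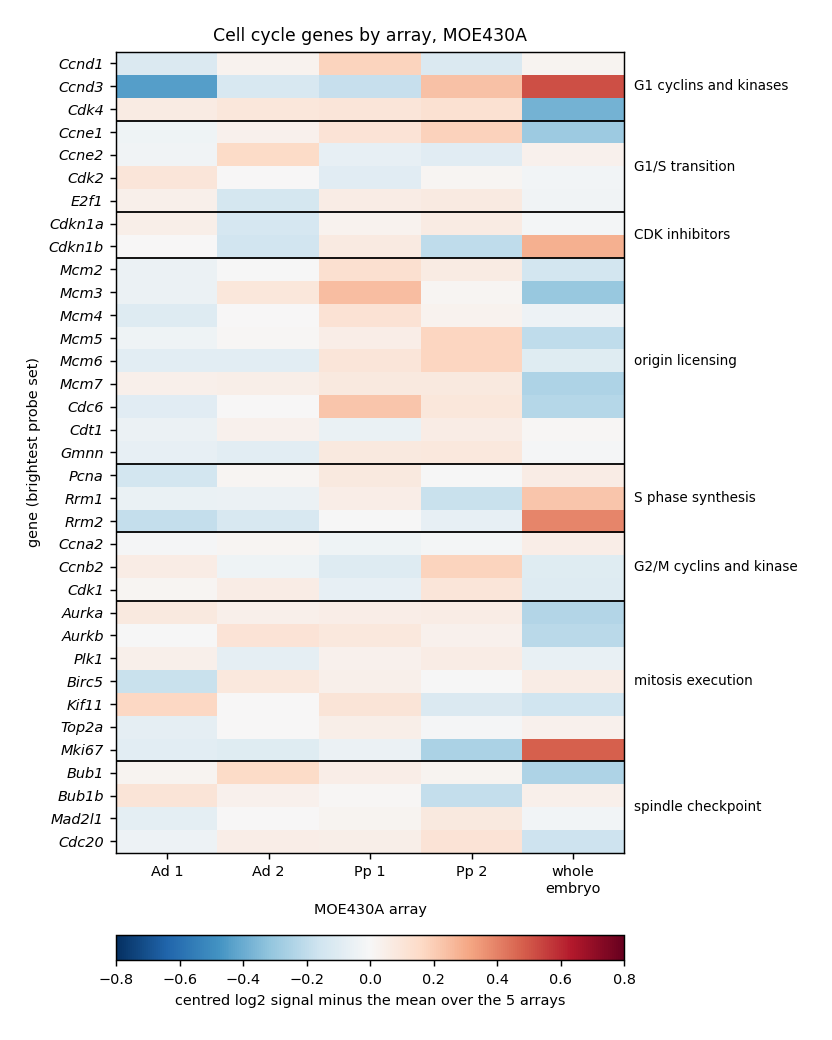
Each of the 35 measured members by its brightest MOE430A probe set, grouped by cell cycle step: colour is the centred log2 signal on each of the 5 arrays minus the gene's mean over them. The 4 fragment columns are pale for most genes, while the whole-embryo column is red for Ccnd3, Rrm2, Mki67 and Cdkn1b and blue for Cdk4, Ccne1 and Mcm3.

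Among the G1 genes, the growth-factor-regulated cyclin D3 had the farthest difference. Ccnd3 had signals of 2414 and 3013 in Ad, against 2772 and 3755 in Pp. The groups overlapped, with the highest fragment value in Pp replicate 2, the fragment that also had the high extraembryonic ectoderm marker sum; the part of that sum was not tested. The log2 difference was -0.31 ± 0.17 (SE) with an adjusted p of 0.519. Without Pp replicate 1, which leaves 1 Pp array, the Ccnd3 difference was -0.52. Cdk4 had 11575 and 11638 in Ad and 11286 and 11359 in Pp, a log2 difference of -0.03 after centring. Ccnd1 differed by -0.07.

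At the G1/S step, the cyclin E genes pointed opposite ways without reaching the threshold. Ccne2 had signals of 898 and 1038 in Ad, against 816 and 788 in Pp, a log2 difference of 0.14 with an adjusted p of 0.552. Ccne1 had 4145 and 4314 in Ad, against 4376 and 4588 in Pp, a log2 difference of -0.15. Both pairs were free of overlap on the centred scale, as were 45.4% of all probe sets. The kinase Cdk2 and the factor E2f1 differed by 0.08 and -0.12, and the inhibitors Cdkn1a and Cdkn1b by -0.09 and -0.01.

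On MOE430A all 9 origin licensing members had a negative difference, with a median of -0.12, and none was called. Over all probe sets 7996 of 13575 were negative. In 7 of the 9 the Ad arrays lay below the Pp arrays without overlap on the centred scale, against 29.1% of all probe sets. Mcm6, a subunit of the replicative helicase, had signals of 5256 and 5186 in Ad, against 5698 and 5971 in Pp, a log2 difference of -0.22 ± 0.07 (SE, adjusted p = 0.351). Cdc6, which loads that helicase on origins, had 2985 and 3169 in Ad, against 3582 and 3208 in Pp, a difference of -0.20 (adjusted p = 0.422). Gmnn, the brake on loading, was the third member with an unadjusted p under 0.05 and differed by -0.16. The lean depended on the scaling: without centring 7 of 9 were negative with a median of -0.05, after quantile normalization 8 of 9 at -0.11, and after cyclic loess 8 of 9 at -0.10. Second probe sets did not all follow it, since those of Mcm6 and Cdt1 differed by 0.07 and 0.01. The 12 other licensing genes measured, among them the origin recognition complex, had a median of 0.03. Mcm5, the only licensing member measured on MOE430B, differed by 0.02 there, against -0.12 on MOE430A.

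The median of the S phase synthesis members was -0.11 over 3 genes, and the later steps lay closer to zero. It was 0.02 for G2/M cyclins and kinase over 3 genes, -0.01 for mitosis execution over 7 and -0.01 for the spindle checkpoint over 4. Of the 7 mitosis members 3 were positive, and without centring all 7 were. Bub1b, the checkpoint kinase BubR1, had the highest positive difference, with 3825 and 3591 in Ad, against 3387 and 2886 in Pp. That is a log2 difference of 0.16 without overlap and with an adjusted p of 0.531. Kif11, the motor that separates spindle poles, had 1504 and 1295 in Ad, against 1348 and 1108 in Pp, and differed by 0.09 with overlap (adjusted p = 0.749). In all, 15 of 35 members did not overlap between Ad and Pp, 12 lower and 3 higher in Ad, beside 45.4% of all probe sets.

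**Figure D2:**
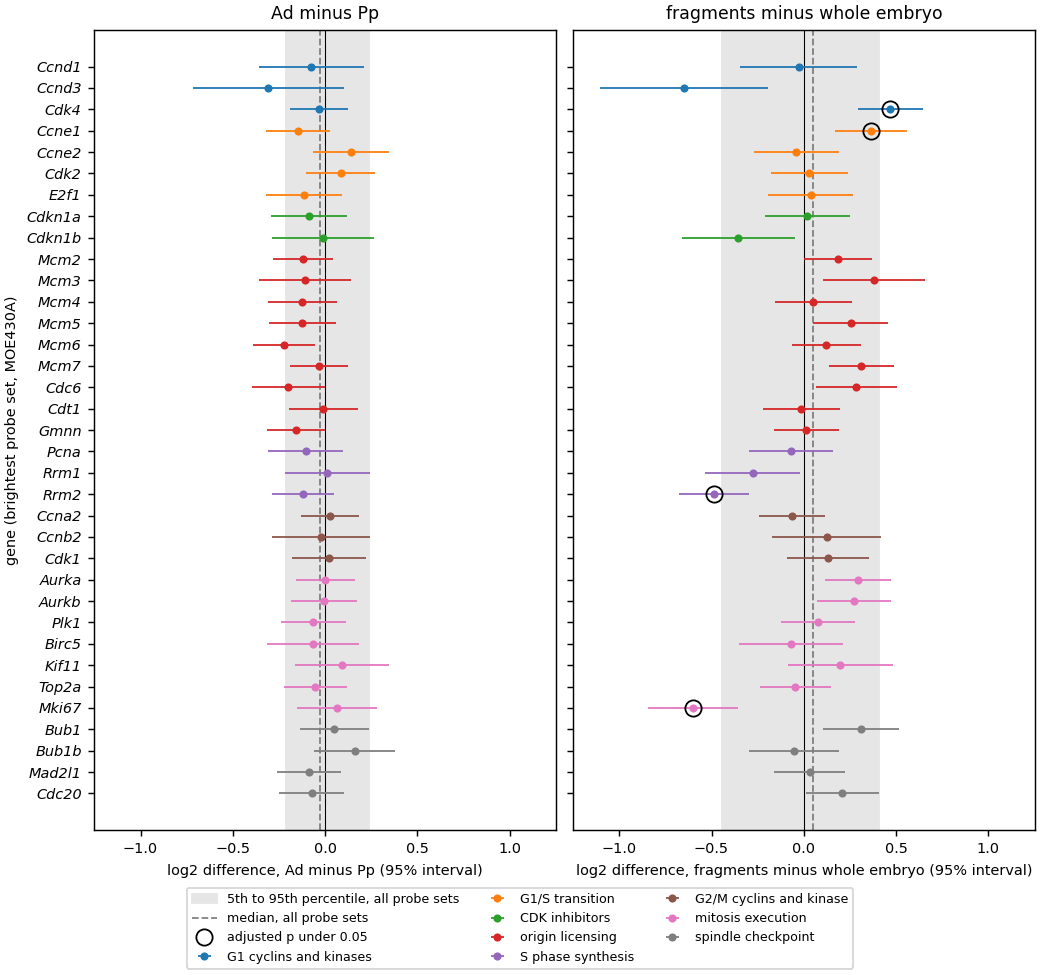
Log2 difference of each measured member on MOE430A with its 95% limma interval, Ad minus Pp on the left and fragments minus whole embryo on the right; the grey band holds the 5th to 95th percentile of all probe sets and rings mark an adjusted p under 0.05. On the left no member is ringed and 33 of 35 lie within 0.2 of zero, while on the right Cdk4, Ccne1, Rrm2 and Mki67 are ringed.

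On MOE430B 0 of 7 members passed the threshold for Ad against Pp and 2 had an unadjusted p under 0.05, beside 0.111% (0.0074% lower) and 10.4% of 13506 probe sets. Cdk6, the second kinase of D-type cyclins, had signals of 225 and 217 in Ad, against 286 and 287 in Pp. Its groups did not overlap, as in 42.8% of all probe sets, and the log2 difference was -0.44 ± 0.13 (SE, adjusted p = 0.423). A dim probe set of Top2a had 56.6 and 57.4 in Ad, against 74.0 and 82.8 in Pp, a difference of -0.47 with an adjusted p of 0.415. The bright MOE430A probe set of Top2a, the enzyme that untangles sister DNA, differed by -0.05.

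The other members on MOE430B were closer together. Ccne1 had 4071 and 3989 in Ad, against 4227 and 4215 in Pp (log2 difference -0.14). The thymidylate maker Tyms had 86.5 and 76.7 in Ad, against 70.2 and 61.1 in Pp (0.20). On the centred scale Ccne1 did not overlap between Ad and Pp and Tyms did, and the adjusted p-values were 0.740 and 0.685. Bub1b had 2529 and 2582 in Ad, against 2055 and 2519 in Pp (0.09). Aurka, the spindle pole kinase, had 62.6 and 51.0 in Ad, against 47.5 and 56.6 in Pp (0.03), with overlap. Mcm5 had 7280 and 7223 in Ad, against 6604 and 6934 in Pp (0.02). On the centred scale its Ad arrays lay above its Pp arrays, as in 19.3% of all probe sets.

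Beyond the members, 168 further cell cycle genes were listed by the same steps. On MOE430A 0 of the 134 measured passed for Ad against Pp and 19 had an unadjusted p under 0.05, with a median of -0.01. Over all MOE430A probe sets the shares were 0.169% and 11.7%. On MOE430B 0 of 57 passed, beside 0.111% of all probe sets.

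The second comparison was of the fragments with the whole embryo, which was not dissected. Its extraembryonic ectoderm marker sum was 12245, against 12301 in Pp replicate 2. The decidual marker sum was 24842 in the whole embryo, against 5085 to 6639 in the fragments. On MOE430A Cdk4 and Ccne1 were higher in the fragments and Rrm2 and Mki67 lower, while no cyclin or kinase of the G2/M step was called. These 4 calls among 35 members compare with 9.78% of all probe sets called (4.6% higher and 5.19% lower), so the share is near the background. The split of all calls depended on the scaling, with 624 of 1328 higher here, 338 of 1304 without centring and 353 of 1150 after cyclic loess. The median difference, fragments minus whole embryo, was 0.04 for the members and 0.05 for all probe sets. Of the members 22 were positive and 13 negative, beside 8258 of all 13575 probe sets positive. The whole embryo has 1 array per type, assumed to vary like the fragments.

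Cdk4, the kinase that works with D-type cyclins in G1, had signals of 11575 and 11638 in Ad and 11286 and 11359 in Pp, against 8695 in the whole embryo. All 4 fragment arrays lay above it and close to each other, at 11465 ± 169 (SD, n = 4 fragment arrays). The fitted difference was 0.47 ± 0.07 (SE), or 1.38-fold higher in the fragments, with a limma adjusted p of 0.0182. Its other 2 probe sets were called too, at 0.48 (adjusted p = 0.0229) and 0.54 (adjusted p = 0.0281). One of these has a suffix for probes unique to the transcript, while the x in the suffix of the brightest means that some probes can match other sequences.

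Ccne1, the cyclin that drives entry into S phase with Cdk2, had 4145 and 4314 in Ad and 4376 and 4588 in Pp, against 3533 in the whole embryo. The fragments were 1.29-fold higher at a log2 difference of 0.36 ± 0.08 (SE, adjusted p = 0.0455), a call close to the threshold that held in 4 of 12 settings. On MOE430B Ccne1 had 4071, 3989, 4227 and 4215 in the fragments, against 3215 in the whole embryo, a log2 difference of 0.35 with an adjusted p of 0.314.

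Rrm2, the small subunit of ribonucleotide reductase that makes deoxynucleotides in S phase, was lower in the fragments by all 3 of its probe sets. The brightest had 8447 and 8700 in Ad and 9145 and 8666 in Pp, against 13066 in the whole embryo. That is a log2 difference of -0.49 ± 0.08 (SE), 1.40-fold lower, with an adjusted p of 0.0191. The probe set 1448226_at had 3697 and 4238 in Ad and 4196 and 4105 in Pp, against 7960 in the whole embryo (-0.85 at an adjusted p of 0.00751). The third differed by -0.47 (adjusted p = 0.0387). The whole embryo stood above every fragment on each. Its partner subunit Rrm1 differed by -0.28 (adjusted p = 0.161) on the brighter probe set and 0.20 on the other, and Pcna by -0.07.

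Mki67, the nuclear antigen Ki-67 of cycling cells, had 2259 and 2208 in Ad and 2198 and 1849 in Pp, against 3552 in the whole embryo. The fragments averaged 2129 ± 188 (SD, n = 4) and were 1.52-fold lower, at a log2 difference of -0.60 ± 0.10 (SE, adjusted p = 0.0217). Ccnd3 had 2414 and 3013 in Ad and 2772 and 3755 in Pp, against 5053 in the whole embryo. Its difference of -0.65 was the lowest of the 35 members on MOE430A, yet its fragments were spread widely and the adjusted p was 0.0872. Without either Pp replicate Ccnd3 was called, and its adjusted p ran from 0.000208 to 0.1996 over the settings.

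**Figure D3:**
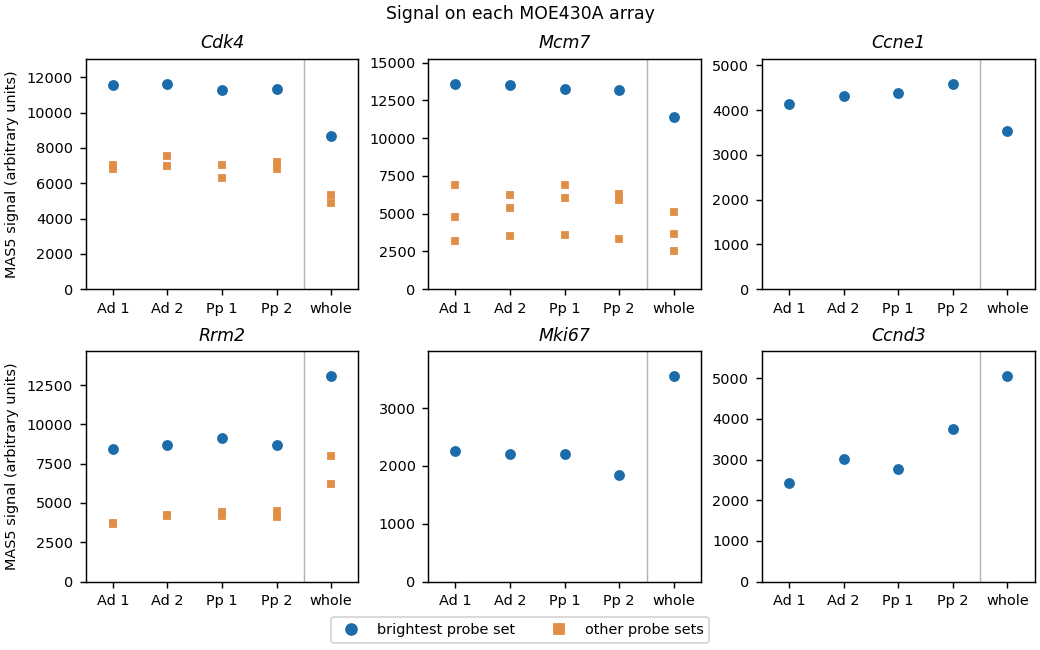
MAS5 signal, from 0 on a linear axis, on each MOE430A array for 6 genes, with the brightest probe set as circles and other kept probe sets as squares. Every probe set of Cdk4, Mcm7 and Ccne1 is lower in the whole embryo than in all 4 fragments, and every one of Rrm2, Mki67 and Ccnd3 is higher. Of all probe sets, 38.5% are lower and 22.7% higher in the whole embryo than in all 4 fragments on the centred scale.

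Cdk4, Rrm2 and Mki67 were called in 10 of 12 settings and lost the call without Ad replicate 1 or without Ad replicate 2, with adjusted p-values of up to 0.108, 0.101 and 0.113. Both of these fits leave 1 Ad array, and fewer of all probe sets were called in them than with every array. Without Pp replicate 1, 8 members were called higher and 5 lower, and without Pp replicate 2, 8 higher and 4 lower. In those fits 22.8% and 25.7% of all probe sets were called, also above the 9.78% with every array. Beside these results, the decidual and the ectoplacental marker sums were also higher in the whole embryo, by the values above, and the epiblast sum lower. Of the measured markers 4 of 8 decidual and 3 of 4 ectoplacental genes were called lower in the fragments, and 6 of 8 epiblast genes higher. Their part in the cell cycle differences was not tested.

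Several licensing genes were called by a dimmer probe set only. The helicase is a ring built from the protein of each of these Mcm genes. Mcm7 had 4774 and 5355 in Ad and 6047 and 5874 in Pp, against 3650 in the whole embryo, on its probe set 1416030_a_at, a log2 difference of 0.64 (adjusted p = 0.0157). A further pair of Mcm7 probe sets were called at 0.49 (adjusted p = 0.0295) and 0.43 (adjusted p = 0.0425). The brightest, at 13605 and 13494 in Ad and 13286 and 13186 in Pp, against 11375 in the whole embryo, gave 0.31 and just missed the threshold (adjusted p = 0.0511).

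Mcm2 was called by 1448777_at, with 3258 and 3722 in Ad and 3759 and 3391 in Pp, against 2473 in the whole embryo (0.55 at an adjusted p of 0.0321). Its brightest, at 0.18, was not called. Mcm3 was called by 1 of 5 probe sets (0.44, adjusted p = 0.0495), and its brightest had 3076 and 3360 in Ad and 3628 and 3030 in Pp, against 2601 in the whole embryo (0.38, adjusted p = 0.0934). Over the phase, 8 of 9 brightest probe sets were positive with a median of 0.18, beside 8258 of all 13575 probe sets positive. Without centring 6 of the 9 were positive. In the mitosis group a dimmer probe set of Aurkb, the kinase of the chromosomal passenger complex, was called at 0.40 (adjusted p = 0.0351), its brightest being at 0.27. Counted by probe set, 10 of 6 genes were higher and 4 of 2 genes lower, 14 of 60 in all or 23.3%, beside 9.78% of all probe sets; 9 of those 14 belong to Cdk4, Mcm7 and Rrm2, so they are not independent.

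By its brightest probe set, no G2, mitosis or checkpoint member other than Mki67 was called. Cdk1, the mitotic kinase, differed by 0.13, Ccnb2 by 0.12, Ccna2 by -0.06 on one probe set and 0.08 on the other, Plk1 by 0.08, Birc5 by -0.07 and Top2a by -0.05. Aurka and Bub1 were at 0.29 and 0.31 with adjusted p-values of 0.0611 and 0.0771. The inhibitors Cdkn1a and Cdkn1b were at 0.02 and -0.35, the second with an adjusted p of 0.138. Medians by step were 0.12 for G2/M, 0.08 for mitosis execution, 0.12 for the checkpoint, -0.28 for S phase synthesis over 3 genes, -0.03 for G1 and 0.03 for G1/S. In all, 20 of 35 members did not overlap between fragments and whole embryo, beside 61.2% of probe sets.

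Of the other listed cell cycle genes, 11 of 134 were higher and 6 lower in the fragments, beside 4.6% and 5.19% of all probe sets, with a median of 0.13. The 5 highest were Chaf1b, a histone chaperone subunit, at 0.61 (adjusted p = 0.0106), Rfc3 of the clamp loader at 0.58, the cohesin protector Cdca5 at 0.55, the cytokinesis motor Kif20a at 0.52 and the thymidylate kinase Dtymk at 0.48. The lowest was Cdkn1c, the inhibitor p57, with 819 ± 153 in the fragments (SD, n = 4), against 2680 in the whole embryo (-1.39, adjusted p = 0.00476). Cdkn1c is also one of the ectoplacental markers above. After it came Ccng2, a cyclin tied to cell cycle exit, at -0.98, the atypical repressor E2f8 at -0.71, the Cdk1-activating phosphatase Cdc25b at -0.56 and Fbxw7, which marks cyclin E for destruction, at -0.44. The S phase synthesis genes outside the member list had a median of 0.23 with 23 of 27 positive and 4 called higher. By the brightest probe set the 3 measured members of that step were all negative, but only Rrm2 was called. Pcna was at -0.07, and the other probe set of Rrm1 differed by 0.20. Of all 13575 probe sets 8258 were positive.

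**Figure D4:**
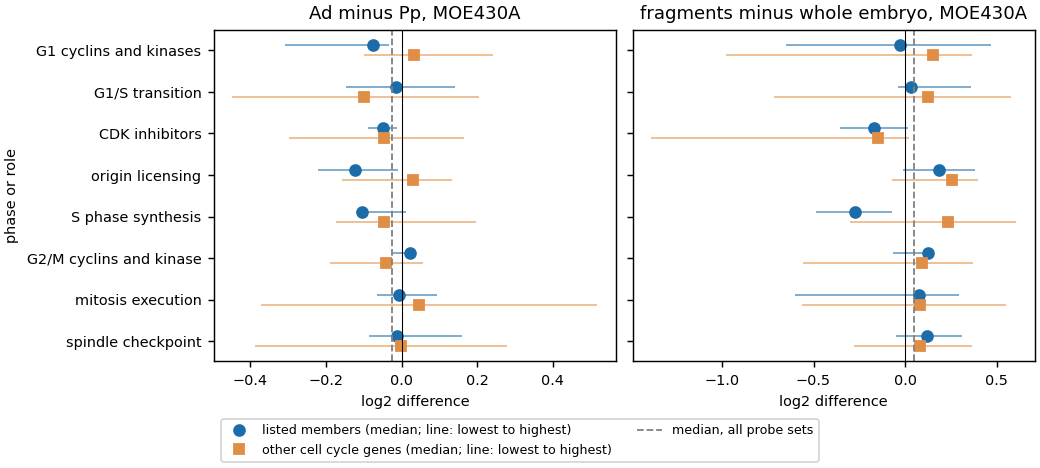
Median log2 difference on MOE430A by cell cycle step for the listed members (circles) and the other cell cycle genes (squares), with a line from the lowest to the highest gene; Ad minus Pp on the left, fragments minus whole embryo on the right, dashed line at the median of all probe sets. Licensing members sit at -0.12 on the left against 0.03 for the other licensing genes. On the right the S phase synthesis members sit at -0.28 against 0.23. Those members are 3 genes, of which only Rrm2 was called.

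The widest difference of any member was that of Cdk6, on MOE430B. Its probe set 1435338_at had signals of 225 and 217 in Ad and 286 and 287 in Pp, against 1056 in the whole embryo. The fragments averaged 254 ± 38.1 (SD, n = 4) and did not reach the whole-embryo value, without overlap as in 52.3% of all probe sets. The log2 difference was -2.03 ± 0.15 (SE), 4.09-fold lower in the fragments, with a limma adjusted p of 0.00195, and it was called in all 12 settings run. It was 1 of 7 measured members, beside 2.21% of all probe sets called on that array type, 1.81% lower and 0.407% higher.

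The other probe sets of Cdk6 did not show a change of that size. On 1455287_at the signals were 55.9 and 88.4 in Ad and 72.5 and 56.9 in Pp, against 92.1 in the whole embryo, a log2 difference of -0.41 with an adjusted p of 0.476. On MOE430A 1460291_at had 283 and 416 in Ad and 399 and 436 in Pp, against 420 in the whole embryo, below the filter and with overlap. The call of Cdk6 thus rests on 1 of its 3 probe sets. The decidual marker sum on MOE430B, over 5 of 12 listed genes, was 250 to 363 in the fragments, against 5224 in the whole embryo. Its 3 measured genes, Hand2, Pgr and Esr1, were all called lower. On MOE430A the brightest probe sets of Pgr and Esr1 differed by 0.06 and 0.15 and were not called. That of Hand2 lay below the filter there. The part of the decidual difference in that of Cdk6 was not tested.

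**Figure D5:**
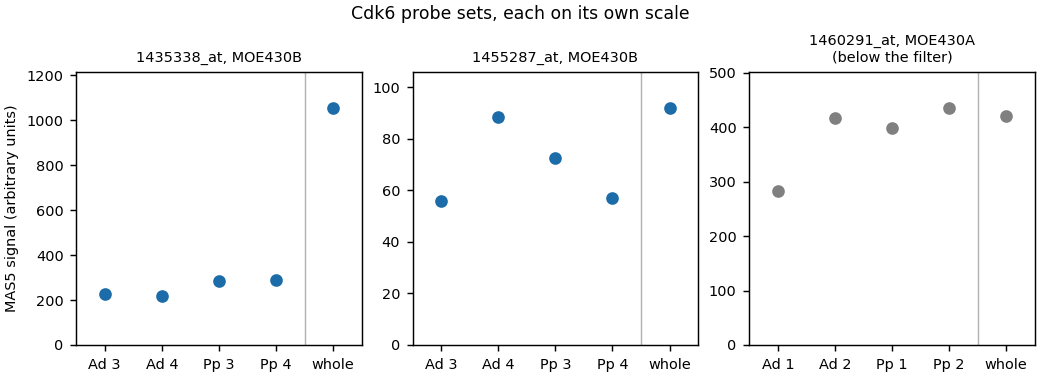
MAS5 signal of the 3 Cdk6 probe sets on each array, from 0 on linear axes that differ between panels; grey marks the MOE430A probe set below the filter. On 1435338_at the 4 fragments lie between 217 and 287 and the whole embryo at 1056, while on 1460291_at the whole embryo lies within the fragments' range.

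No other MOE430B member was called against the whole embryo. Top2a had 56.6 and 57.4 in Ad and 74.0 and 82.8 in Pp, against 45.8 in the whole embryo (0.45 at an adjusted p of 0.216), all fragments being higher, as in 28.8% of all probe sets. Tyms had 86.5, 76.7, 70.2 and 61.1 in the fragments, against 64.7 in the whole embryo (0.15), and Aurka 62.6, 51.0, 47.5 and 56.6, against 59.1 (-0.11), both with overlap. Mcm5 differed by 0.05 and Bub1b by 0.04. Of the other listed cell cycle genes 0 of 57 passed on MOE430B with limma, and 11 had an unadjusted p under 0.05. Over all MOE430B probe sets the shares were 2.21% and 16.4%.

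Promoters are shown for the 5 members called against the whole embryo by their brightest probe set, and for Mcm6 and Mcm7, so that their regulatory letters can be compared. Mcm6 was called in neither comparison. Windows of Mcm2 and Mcm3, called by a dimmer probe set as Mcm7 was, are not shown. Transcription of S phase genes is classically driven through E2F sites and that of G2 and mitosis genes through CCAAT boxes and CHR elements. The 250 bases before the RefSeq start (GRCm38.p6) were searched on both strands for the E2F letters TTTCCCGC, TTTGGCGC, TTTCGCGC and TTTGCCGC, for CCAAT and for the CHR letters TTTGAA. Windows were held for 32 of the 39 members. E2F letters were found in 6 of the 32 (18.8%), against 2.16% of 27025 genes, and those were Cdk2, Mcm5, Mcm6, Mcm7, Cdc6 and Cdk1, 4 of them licensing genes. CCAAT was found in 22 of the 32 (68.8%), against 37.5% of all genes, and CHR letters in 7 (21.9%), against 18.3%. Capitals mark a match on either strand, and a match is a description of letters, not of binding.
Mcm6: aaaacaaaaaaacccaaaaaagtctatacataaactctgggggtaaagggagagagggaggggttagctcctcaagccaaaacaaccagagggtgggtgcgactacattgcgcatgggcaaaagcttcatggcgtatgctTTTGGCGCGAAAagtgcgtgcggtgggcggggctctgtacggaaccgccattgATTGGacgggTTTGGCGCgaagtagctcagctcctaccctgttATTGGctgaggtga
Mcm7: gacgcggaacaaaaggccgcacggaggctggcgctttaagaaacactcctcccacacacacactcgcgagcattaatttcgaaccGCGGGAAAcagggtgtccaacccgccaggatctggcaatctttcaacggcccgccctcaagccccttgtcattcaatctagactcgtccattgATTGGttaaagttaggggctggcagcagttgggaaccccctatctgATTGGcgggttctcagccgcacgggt
Mki67: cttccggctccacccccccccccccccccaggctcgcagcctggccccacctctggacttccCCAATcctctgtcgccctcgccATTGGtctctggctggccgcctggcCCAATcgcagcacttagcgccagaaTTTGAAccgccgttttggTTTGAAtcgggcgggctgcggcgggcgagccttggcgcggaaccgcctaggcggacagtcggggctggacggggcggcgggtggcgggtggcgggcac
Ccne1: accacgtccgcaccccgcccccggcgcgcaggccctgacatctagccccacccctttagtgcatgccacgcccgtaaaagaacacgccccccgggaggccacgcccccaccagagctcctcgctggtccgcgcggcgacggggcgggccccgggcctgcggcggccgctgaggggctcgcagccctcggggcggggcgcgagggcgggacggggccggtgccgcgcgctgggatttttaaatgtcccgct
Rrm2: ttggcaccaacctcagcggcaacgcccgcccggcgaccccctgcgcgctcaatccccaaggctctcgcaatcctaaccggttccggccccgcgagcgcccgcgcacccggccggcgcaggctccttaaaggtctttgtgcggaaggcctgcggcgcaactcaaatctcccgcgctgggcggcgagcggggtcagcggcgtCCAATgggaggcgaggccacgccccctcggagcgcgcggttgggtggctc
Cdk4: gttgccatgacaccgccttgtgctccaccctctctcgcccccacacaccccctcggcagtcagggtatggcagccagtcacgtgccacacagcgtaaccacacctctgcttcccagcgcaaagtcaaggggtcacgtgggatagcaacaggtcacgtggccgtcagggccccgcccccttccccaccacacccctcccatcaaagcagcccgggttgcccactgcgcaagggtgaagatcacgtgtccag
Cdk6: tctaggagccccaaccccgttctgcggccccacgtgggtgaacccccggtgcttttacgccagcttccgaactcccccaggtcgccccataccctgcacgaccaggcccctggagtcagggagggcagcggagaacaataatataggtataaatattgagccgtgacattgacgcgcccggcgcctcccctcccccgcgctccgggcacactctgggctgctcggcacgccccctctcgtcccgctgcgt

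The Mcm6 window, on the minus strand at chr1:128359706-128359955, holds 3 E2F matches, 2 of which overlap, and 2 CCAAT boxes. That of Mcm7, on the minus strand at chr5:138171884-138172133, holds 1 E2F match and 2 CCAAT boxes, and is the one of its 2 RefSeq windows that has E2F letters. Mki67 (minus strand, chr7:135716380-135716629) holds 3 CCAAT boxes and 2 CHR matches, and Rrm2 (plus strand, chr12:24708004-24708253) holds 1 CCAAT box. Ccne1 (minus strand, chr7:38107491-38107740), Cdk4 (plus strand, chr10:127063285-127063534) and Cdk6 (plus strand, chr5:3343643-3343892) hold no match to any of these letters. By the brightest probe set, the members called higher in the fragments, Cdk4 and Ccne1, carry none of these letters. Of those called lower, Rrm2 and Mki67 carry CCAAT and Cdk6 carries none. Mcm7, with E2F and CCAAT letters, was called higher on 3 of 4 probe sets, but not on its brightest. Mcm2 and Mcm3, called higher by a dimmer probe set only, carry CCAAT, and Mcm2 also carries CHR letters. Aurkb, called in the same way, had no window.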

How the data were processed

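RNA of Ad, Pp and whole-embryo samples was extracted with TRIzol, linearly amplified and hybridised to Affymetrix arrays, per the labels' protocols. The deposited values are linear intensity per probe set, and the authors ran MAS5 according to the submitters' processing notes. Neither its version nor its scaling target or floor is stated in the labels or files used here. Each array type was scaled separately, so it was analysed alone and the 2 types were never tested together.

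The tests used limma 3.58.1 under R 4.3.3. Control probe sets (64 per type) did not enter. A pseudocount at the 20th percentile (247 on MOE430A, 10.5 on MOE430B) was added before log2, which draws folds of dim genes towards 1. Probe sets with a mean log2 above the 40th percentile were kept (signal 464 and 37.2), which left 13575 of 22690 and 13506 of 22575. Arrays were centred on their median, and lmFit and eBayes were fitted to the 5 arrays of a type with 2 residual degrees of freedom. Tests are two-sided with a Benjamini-Hochberg threshold of 0.05. Intervals are 95% limma intervals, and precision is limited by the number of arrays. The fit was run on simulated data in which Ad differed from Pp by 2 log2 units, wider than any member's difference between them. That run does not show how often smaller differences are called.

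The platform annotation gives 1 symbol to 20393 probe sets on MOE430A and 14674 on MOE430B, several to 691 and 245, and none to 1606 and 7656. All 38 members matched RefSeq (GRCm38.p6), the source of the promoter windows. Probe sets at one gene are not averaged. The members, the 168 further cell cycle genes and the 7 marker lists were chosen with earlier results of these data known, so lists are described by counts and medians with no set test. Array values are given for members past the threshold and for the 3 members farthest each way in each comparison, and of the other cell cycle genes the 5 farthest called each way are named. Called probe sets beside the brightest, and members that describe a step, are given as differences as well. Alternatives were other scaling (no centring, quantile, cyclic loess), pseudocounts, filters, an intensity trend, a replicate block and leaving out each replicate.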

Additional observations from a re-analysis of the deposited data

How the results depend on the processing

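No result changed direction while called. For Ad against Pp on MOE430A, 23 probe sets were called, 46 without centring and 1 to 811 when 1 replicate was left out. Members called lower numbered 0 with every array. Without Pp replicate 1, which leaves 1 Pp array, the Ccnd3 difference was -0.52. For fragments against the whole embryo on MOE430A, calls ran from 274 to 3493, members called higher from 0 to 8 and members called lower from 0 to 5 with 1 replicate left out. The 2 members called higher became 1 after cyclic loess, with the 60th-percentile filter, without centring and without a pseudocount, and 3 with the 40th-percentile pseudocount. The members' median of 0.04 became -0.0421 without centring. On MOE430B the 15 calls for Ad against Pp became 26 with the 60th-percentile filter, 30 with an intensity trend, 2 with no filter and 30 with the 40th-percentile pseudocount, and 0 to 131 with 1 replicate left out. The members' median of 0.02 became -0.04999 with the 60th-percentile filter, 0.10 without centring and -0.0540 after quantile normalization, and ran from -0.105 to 0.0378 with 1 replicate left out. The 299 calls against the whole embryo became 196 with no filter and 101 to 1180 with 1 replicate left out. The members' median of 0.05 there became -0.00989 after cyclic loess, and 0.0478 to 0.127 with 1 replicate left out. Of those 299 calls 55 were higher, against 115 of 419 with the trend and 100 of 425 with the 40th-percentile pseudocount. The causes of these shifts were not tested, beyond that fits without a replicate hold fewer arrays and those with another filter test other probe sets. Same-numbered fragments did not deviate together (correlation -0.242 on MOE430A and -0.0392 on MOE430B), so the numbers are not shown to pair them. With the replicate block, calls for Ad against Pp were 24 on MOE430A and 29 on MOE430B, and 0 members were called. A crossed replicate block, added after seeing the data, gave 47 on MOE430A. Of the values for single genes and for cell cycle steps under an alternative, 1331 kept their direction and side of the threshold or moved little, 93 moved, 21 gained and 14 lost a call.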
